A study of Mus musculus with 12 samples.

Results

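The genes described here are the mitochondrial solute carriers of the mouse heart, taken as every row of the deposited expression table whose symbol starts with Slc25a. The table held 47 such rows among 24918 genes. Of these, 41 reached a value of log2 of 10 in 3 or more libraries of 12, which was the condition for a test, and each of the 41 did so in all 12. The 6 rows left untested were Slc25a2, Slc25a21, Slc25a41, Slc25a43, Slc25a48 and Slc25a54. The nearest row below the limit was Slc25a43, at 3.19 to 3.24 on the log2 scale, and the nearest above it was Slc25a18, a glutamate carrier, at 3.80 to 3.85.

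Carriers of this family sit in the inner mitochondrial membrane and exchange small molecules between the cytosol and the matrix, among them ADP and ATP, phosphate, carboxylates, amino acids, acylcarnitines, cofactors and iron. In the heart the ADP/ATP carrier and the phosphate carrier feed oxidative phosphorylation, the aspartate/glutamate and oxoglutarate carriers form the malate-aspartate shuttle, and the carnitine/acylcarnitine carrier brings fatty acids to oxidation. The carriers are made in the cytosol and inserted into the membrane by a dedicated import machinery.

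Total RNA of hearts of C57BL/6 mice, 2 months old and without treatment, was sequenced in 12 libraries, 3 for each combination of sex with genotype, floxed or cardioGRKO, which gave 4 groups. All mice carry the homozygous floxed gene of the glucocorticoid receptor (GRloxP/loxP), and by the titles only cardioGRKO mice also carry αMHCCre/+, a Cre recombinase driven by the promoter of the cardiac α-myosin heavy chain, which is active in cardiomyocytes. An effect of Cre and one of the deletion therefore cannot be told apart. The question, from the series title, is what the deletion of the receptor in cardiomyocytes changes in cardiac transcripts and how far this depends on sex. Values are the authors' log2 expression values, from which sequencing depth cannot be read, so precision is judged from the spread between libraries, whose median SD within groups was 0.0325. Whether each library is a separate animal is not stated in the labels, and p-values then cover the spread among the libraries sequenced, which may be technical.

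Before the carriers, the libraries were checked against their labels. Nr3c1, the targeted receptor gene, was lower in male cardioGRKO libraries by 0.56 (from 11.41 to 10.85; log2 change -0.56, SE 0.024, limma adjusted p = 2.4e-11). It was higher by 0.14 in the libraries labelled female cardioGRKO (10.74 in those labelled female floxed against 10.88, SE 0.024, limma adjusted p = 0.00038), which goes against the label. With female floxed 3 as the only floxed female library, for the reason given next, the value was 0.10 (adjusted p = 0.0387). Directions in the female libraries below follow the labels. If the labels of both female groups were exchanged, which the files cannot settle, each female difference below would keep its size and turn its sign. The libraries labelled female floxed 1 and 2 also hold epithelial transcripts, with Krt12, a corneal keratin, at 13.13 and 13.98 against 8.35 in the third and at most 8.49 elsewhere. The female differences of the genes named below are therefore also given with the library labelled female floxed 3 as the only floxed female one ("with female floxed 3 alone"). In this fit the spread of that lone library is assumed to be like that of the other groups. An adjusted p from this fit can therefore be smaller than in the main fit and adds no support to a call. The heart label held in every library: the 12 cardiomyocyte markers made up 10.4% to 11.0% of the summed linear values.

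In the deposited values male cardioGRKO hearts had lower transcript levels of the most abundant carriers, and no Slc25a row was called higher. Under quantile normalization 12 members were lower and 1 higher in males, where 1928 of all 14721 genes tested were lower and 1889 higher. The most abundant ones, Slc25a4, Slc25a3 and Slc25a11, were then not called (limma adjusted p = 0.18, 0.504 and 0.0646). Of the 41 tested members, 15 were lower and 0 higher in male cardioGRKO than in male floxed libraries (limma, Benjamini-Hochberg adjusted p under 0.05 over all 14721 genes tested). Over all genes tested 27.4% were called, 14.6% lower and 12.8% higher. At an unadjusted p under 0.05 (limma) the members were 17 lower and 5 higher. The share of all genes at that threshold was not counted, and the 27.4% is for adjusted p. Leaving out male floxed 1, male floxed 2 or male cardioGRKO 1 made 1 member higher, Slc25a1, Slc25a44 and Slc25a37 in turn. The median difference was -0.022 over the members and -0.002 over all genes, and 26 of the 41 members were not called. In the libraries labelled female the split ran the other way, with 10 members higher and 3 lower in cardioGRKO (background 29.3% called, 15.2% higher and 14.0% lower) and a median of 0.020. With female floxed 3 as the only floxed female library the counts were 8 higher and 2 lower, and those over all genes fell too, to 18.6% called, 10.1% higher and 8.48% lower. With the female labels exchanged, 3 members would be higher and 10 lower. In hearts sequenced in bulk, fewer cardiomyocytes and less of a transcript per cardiomyocyte cannot be told apart.

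**Figure D1:**
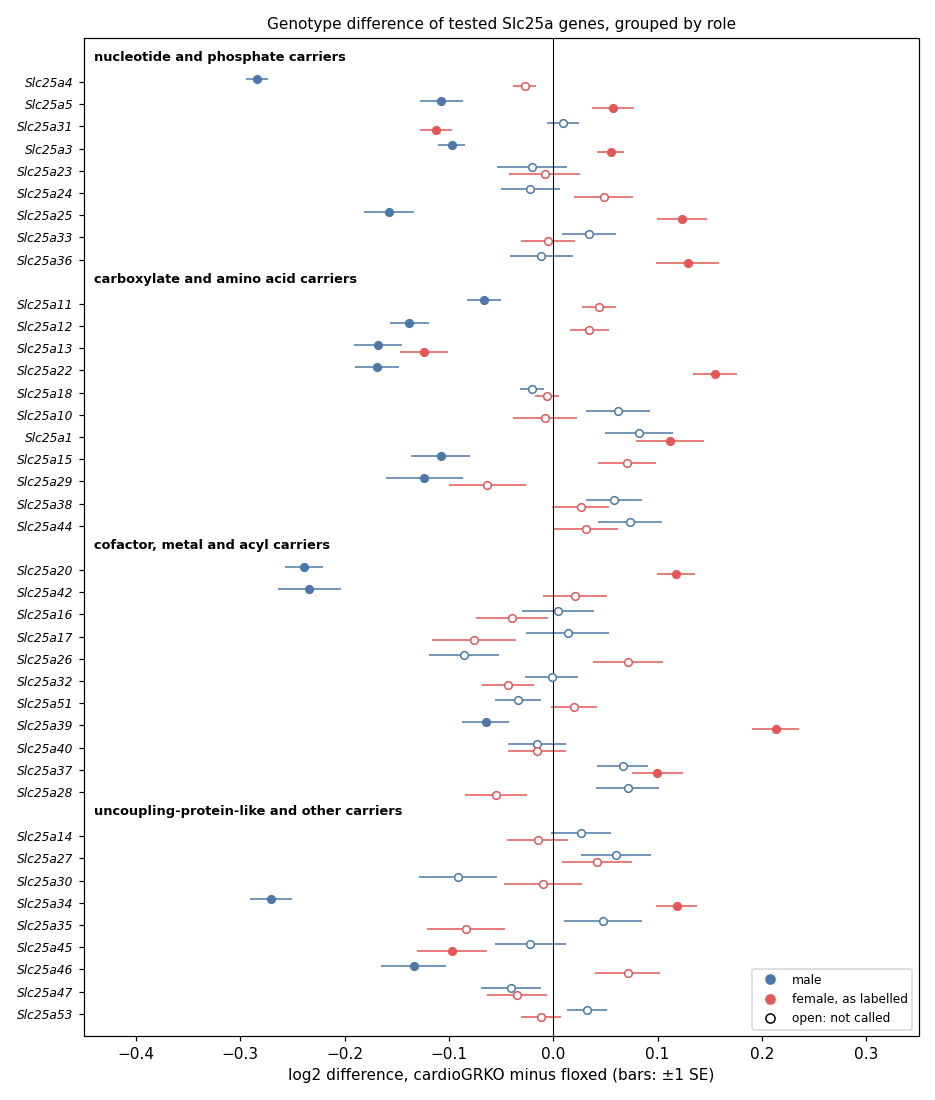
Difference in log2 value between cardioGRKO and floxed libraries (horizontal axis) for tested Slc25a genes, grouped by what they carry; blue points are male, red points female as labelled, bars are 1 SE of the limma fit and filled points are called. Among the blue points 15 are filled and all of these lie left of 0; among the red points 10 filled ones lie right of 0 and 3 left of it.

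The carriers of nucleotides and phosphate were described first, because they hold the most abundant members. Per kilobase of exon, Slc25a4 took 61.2% of the members' summed linear level in male floxed hearts, Slc25a3 17.3%, Slc25a11 6.3% and Slc25a5 3.39%. The order of these 4 was the same in all 4 groups. Of the 9 tested genes of this class, 4 were lower and 0 higher in males, while as labelled 4 were higher and 1 lower in females. Over all genes tested, 14.6% were lower and 12.8% higher in males. As labelled, 15.2% of all genes were higher and 14.0% lower in females. Exon lengths came from a later annotation than the one behind the values, so these shares are approximate.

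Slc25a4 (Entrez 11739, chromosome 8) encodes the ADP/ATP carrier of heart and skeletal muscle, which exports ATP from the matrix. It stood at 17.45, 17.47 and 17.47 in male floxed libraries, at 17.17, 17.19 and 17.17 in male cardioGRKO, at 17.19 in each library labelled female floxed, and at 17.18, 17.15 and 17.16 in the female cardioGRKO ones. The male floxed libraries alone were high, above every other library, and the others lay between 17.15 and 17.19. In males the difference was -0.28 (SE 0.011, limma adjusted p = 4.1e-12), or 0.821 of the floxed level. Between the libraries labelled female it was -0.03 (SE 0.011, adjusted p = 0.064), and the male difference minus the female one was -0.26 (SE 0.015, adjusted p = 1.3e-09). The male call did not survive quantile normalization (-0.04, adjusted p = 0.18), under which a value is set by its rank and the difference between the comparisons was 0.03 (adjusted p = 0.385). Slc25a4 ranked 10 of all genes in male floxed, 11 in male cardioGRKO and 12 to 13 in the libraries labelled female. With female floxed 3 alone the female value was -0.02 (adjusted p = 0.284). The female difference was called without female floxed 3 (-0.03, adjusted p = 0.0415), without female cardioGRKO 1 (-0.03, adjusted p = 0.0344) and under quantile normalization (-0.07, adjusted p = 0.0115).

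Slc25a3 (Entrez 18674, chromosome 10), the phosphate carrier, supplies the phosphate that ATP synthase uses. Its values were 15.66, 15.64 and 15.66 in male floxed and 15.55, 15.57 and 15.55 in male cardioGRKO libraries. Those labelled female had 15.53, 15.55 and 15.52 in floxed and 15.59, 15.60 and 15.58 in cardioGRKO. The genotype groups did not overlap in either sex, and they were ordered oppositely. The differences were -0.10 in males (SE 0.013, adjusted p = 1.9e-05) and 0.05 in females (SE 0.013, adjusted p = 0.0043; 0.07 with female floxed 3 alone, adjusted p = 0.00417), and they differed from each other by -0.15 (SE 0.018, adjusted p = 6e-06). Under quantile normalization neither was called, with -0.02 in males (adjusted p = 0.504) and -0.0004 in females (adjusted p = 0.99).

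Slc25a5 (Entrez 11740, X chromosome), the ADP/ATP carrier of many other tissues, was measured at 12.65, 12.63 and 12.68 in male floxed and 12.54, 12.54 and 12.55 in male cardioGRKO libraries. The male libraries did not overlap, and the difference was -0.11 (SE 0.020, adjusted p = 0.00072). Female libraries, as labelled, had 12.57, 12.59 and 12.51 in floxed and 12.60, 12.62 and 12.62 in cardioGRKO, a difference of 0.06 (SE 0.020, adjusted p = 0.045). That female call was lost in 15 of 22 alternatives, among them the fits without any 1 female library other than female floxed 2. It was 0.10 with female floxed 3 alone (adjusted p = 0.00942). A processed copy of this gene, Slc25a5-ps, is annotated, so its reads may be shared and its level is uncertain.

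Slc25a25 (Entrez 227731, chromosome 2), a calcium-regulated ATP-magnesium/phosphate carrier, had nearly the same level in male floxed as in female cardioGRKO libraries. It was 8.68, 8.69 and 8.69 in male floxed and 8.52, 8.55 and 8.52 in male cardioGRKO. By the female labels it was 8.53, 8.54 and 8.56 in floxed and 8.67, 8.67 and 8.66 in cardioGRKO. The difference was -0.16 in males (SE 0.024, adjusted p = 7.4e-05) and 0.12 in females (SE 0.024, adjusted p = 0.00092). With female floxed 3 alone the female value was 0.11 and not called (adjusted p = 0.0625). Naif1, on the other strand, shares 9.2% of its exon length, and whether reads were counted by strand is not given in the sources used here.

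Slc25a36, a pyrimidine nucleotide carrier, was called only in the libraries labelled female. It stood at 9.54, 9.55 and 9.52 in floxed and 9.60, 9.69 and 9.69 in cardioGRKO (0.13, SE 0.030, adjusted p = 0.004; 0.15 with female floxed 3 alone, adjusted p = 0.0184), against -0.01 in males (adjusted p = 0.83). The male and female differences themselves differed by -0.14 (adjusted p = 0.018), a call that reached the threshold and was lost without male floxed 3 (adjusted p = 0.05). Slc25a31, the ADP/ATP carrier of the testis, was near the bottom of the range and moved the opposite way. Its 3 libraries labelled female floxed, at 5.16, 5.15 and 5.16, lay above every other library, which ranged from 5.03 to 5.08, and the female difference was -0.11 (SE 0.015, adjusted p = 3.6e-05; -0.11 with female floxed 3 alone, adjusted p = 0.000636). The ATP-magnesium/phosphate carriers Slc25a23 and Slc25a24 and the pyrimidine carrier Slc25a33 were called in no comparison.

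**Figure D2:**
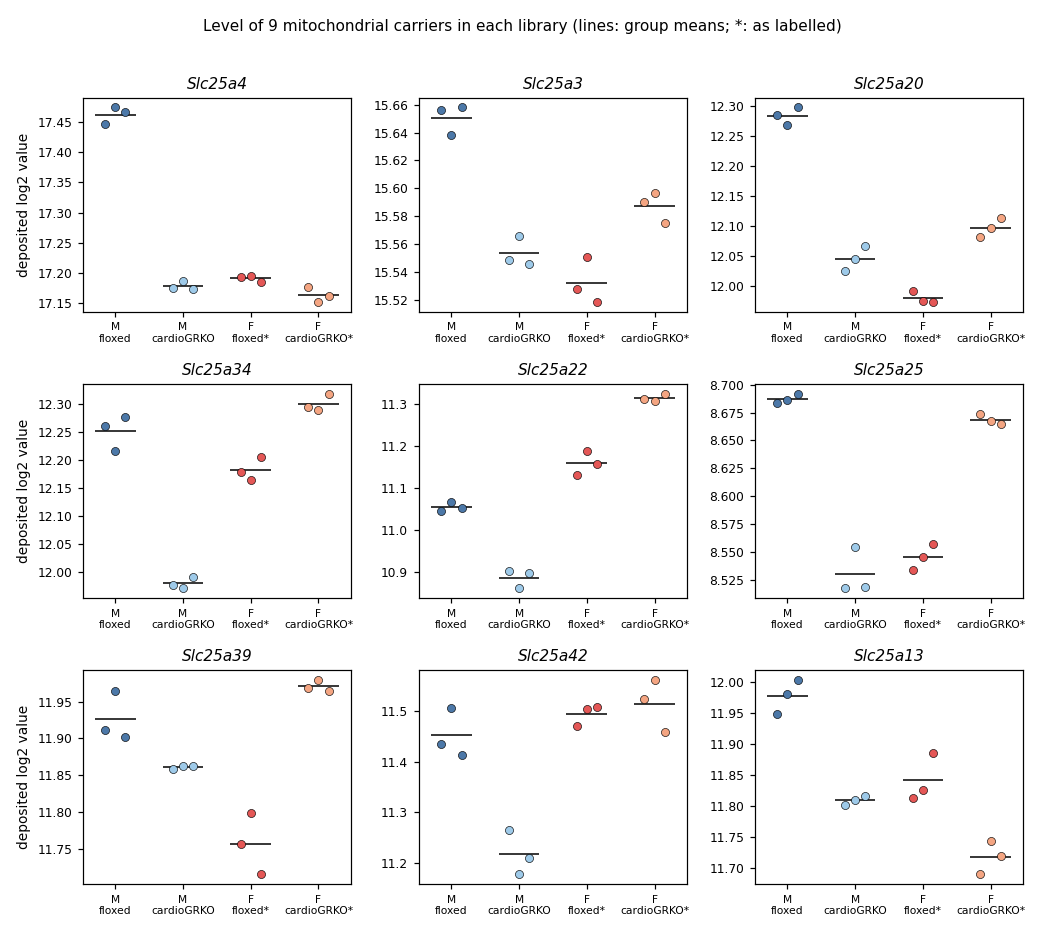
Deposited log2 values (vertical axes, each panel with its own range) of 9 carriers by library (points, replicates 1 to 3 in order within a group); lines are group means, M is male, F female, and an asterisk marks groups named as labelled. Slc25a4 is high in male floxed libraries alone, Slc25a25 is high in male floxed and female cardioGRKO libraries, and Slc25a13 is lower in cardioGRKO in both sexes.

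Of 11 tested carboxylate and amino acid carriers 6 were lower and 0 higher in males, where 14.6% of all genes were lower and 12.8% higher. As labelled, 2 of the 11 were higher and 1 lower in females, where 15.2% of all genes were higher and 14.0% lower. The 3 carriers of the malate-aspartate shuttle, which moves reducing equivalents of NADH into the matrix, were all among the lower ones in males.

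Slc25a11 (Entrez 67863, chromosome 11), the oxoglutarate carrier, was at 14.02, 14.00 and 14.01 in male floxed and 13.96, 13.94 and 13.94 in male cardioGRKO libraries. The groups did not overlap, although the difference was only -0.07 (SE 0.016, adjusted p = 0.0057), and it was not called under quantile normalization (-0.04, adjusted p = 0.0646). Those labelled female had 13.85, 13.83 and 13.89 in floxed and 13.90 in each cardioGRKO one (0.04, SE 0.016, adjusted p = 0.056), which was called without female floxed 3 (0.06, adjusted p = 0.00902) and was 0.01 with female floxed 3 alone (adjusted p = 0.812).

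Slc25a12 (Entrez 78830, chromosome 2), the aspartate/glutamate carrier of muscle and brain, showed a larger gap between the male groups. Male floxed libraries had 12.64, 12.68 and 12.67 and male cardioGRKO 12.54, 12.52 and 12.52, a difference of -0.14 (SE 0.019, adjusted p = 2.3e-05). The libraries labelled female overlapped, at 12.33, 12.37 and 12.36 in floxed and 12.37, 12.39 and 12.40 in cardioGRKO (0.03, SE 0.019, adjusted p = 0.18; 0.02 with female floxed 3 alone, adjusted p = 0.63). The male groups both lay above both female ones.

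Slc25a13 (Entrez 50799, chromosome 6), the second aspartate/glutamate carrier, was the only member called lower in both sexes as labelled. Were the female labels exchanged, it would be lower in males and higher in females. It stood at 11.95, 11.98 and 12.0035 in male floxed and 11.80, 11.81 and 11.82 in male cardioGRKO libraries (-0.17, SE 0.023, adjusted p = 2.8e-05). Female libraries, as labelled, had 11.81, 11.83 and 11.89 in floxed and 11.69, 11.74 and 11.72 in cardioGRKO (-0.12, SE 0.023, adjusted p = 0.00069). The 2 differences were not shown to differ (-0.04, SE 0.032, adjusted p = 0.34). The female value was -0.17 with female floxed 3 alone (adjusted p = 0.000187).

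Slc25a22 (Entrez 68267, chromosome 7), a glutamate carrier, differed in opposite directions as labelled. Male floxed libraries had 11.04, 11.07 and 11.05 and male cardioGRKO 10.90, 10.86 and 10.90. Those labelled female had 11.13, 11.19 and 11.16 in floxed and 11.31, 11.31 and 11.33 in cardioGRKO. The male cardioGRKO libraries were below and the female cardioGRKO libraries above every other one. The differences were -0.17 (SE 0.021, adjusted p = 1e-05) and 0.16 (SE 0.021, adjusted p = 3.7e-05; 0.16 with female floxed 3 alone, adjusted p = 0.000878).

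Among the remaining amino acid carriers, Slc25a15, an ornithine carrier of the urea cycle, was lower in males by 0.11 (log2 change -0.11, adjusted p = 0.008), and Slc25a29, a carrier of basic amino acids, by 0.12 (log2 change -0.12, adjusted p = 0.019). The Slc25a29 call was lost without male floxed 2, male floxed 3, male cardioGRKO 1 or male cardioGRKO 2, with adjusted p between 0.0511 and 0.0787. Slc25a1, the citrate carrier, had 8.38, 8.42 and 8.35 in female floxed and 8.48, 8.52 and 8.47 in female cardioGRKO libraries as labelled (0.11, adjusted p = 0.016), a call lost without female floxed 3 (0.09, adjusted p = 0.0576) and without female cardioGRKO 2 (0.10, adjusted p = 0.0675); with female floxed 3 alone it was 0.15 (adjusted p = 0.0234). In males its difference was 0.08 (adjusted p = 0.073). Slc25a10, Slc25a18, Slc25a38 and Slc25a44, carriers of dicarboxylates, glutamate, glycine and branched-chain amino acids, were called in no comparison.

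Of the 12 carriers of cofactors, metals and acyl groups, 3 were lower and 0 higher in males, and by the female labels 3 were higher and 0 lower. The shares over all genes were 14.6% lower and 12.8% higher in males, and 15.2% higher and 14.0% lower in females. Slc25a20 (Entrez 57279, chromosome 9), the carnitine/acylcarnitine carrier, imports acylcarnitines for fatty acid oxidation. It was measured at 12.29, 12.27 and 12.30 in male floxed and 12.02, 12.05 and 12.07 in male cardioGRKO libraries. In the libraries labelled female it was 11.99, 11.97 and 11.97 in floxed and 12.08, 12.10 and 12.11 in cardioGRKO. The male floxed libraries were above and the female floxed libraries below all others, so the 2 floxed groups stood farther apart than the 2 cardioGRKO groups. The difference was -0.24 in males (SE 0.018, adjusted p = 3.8e-08), or 0.847 of the floxed level, and 0.12 in females (SE 0.018, adjusted p = 0.00015; 0.12 with female floxed 3 alone, adjusted p = 0.00295).

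Slc25a42 (Entrez 73095, chromosome 8), the coenzyme A carrier, was low in male cardioGRKO libraries alone. Its values were 11.43, 11.51 and 11.41 in male floxed and 11.26, 11.18 and 11.21 in male cardioGRKO, and ran from 11.46 to 11.56 over the 6 libraries labelled female. The male difference was -0.23 (SE 0.030, adjusted p = 1.6e-05), against 0.02 in females (adjusted p = 0.66; 0.01 with female floxed 3 alone, adjusted p = 0.938), and the 2 differed by -0.25 (SE 0.043, adjusted p = 0.00022).

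Slc25a39 (Entrez 68066, chromosome 11), a mitochondrial glutathione carrier, had the largest female difference among the members. The libraries labelled female floxed had 11.76, 11.80 and 11.72 and those labelled female cardioGRKO 11.97, 11.98 and 11.96. The floxed ones were below every other library, and the difference was 0.21 (SE 0.023, adjusted p = 2.6e-06), or 0.25 with female floxed 3 alone. Males had 11.91, 11.96 and 11.90 in floxed and 11.86 in each cardioGRKO library (-0.06, SE 0.023, adjusted p = 0.043), which was not called in 13 of 22 alternatives, among them without any 1 male library other than male floxed 3. The mitoferrins, which import iron, were less clear. Slc25a37 was higher in the libraries labelled female cardioGRKO by 0.10 (adjusted p = 0.0059), although with female floxed 3 as the only floxed female library this was 0.07 and not called (adjusted p = 0.224). Gm31748 and Gm27223, on the other strand, share 11.3% of the exon length of Slc25a37. Carriers of peroxisomal cofactors, folate, NAD and glutathione, Slc25a17, Slc25a32, Slc25a51 and Slc25a40, and Slc25a16, linked to coenzyme A, were called in no comparison. Slc25a28 was called in neither sex and only in the difference between them (0.13, adjusted p = 0.032). That call was lost in 5 of the 12 fits without 1 library, those without male floxed 1, male cardioGRKO 3, female floxed 2, female cardioGRKO 1 or female cardioGRKO 3, with adjusted p between 0.0558 and 0.0841, and with female floxed 3 alone (0.12, adjusted p = 0.0965).

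Of the 9 uncoupling-protein-like and remaining carriers, 2 were lower in males, and as labelled 1 was higher and 1 lower in females. Among all genes tested 14.6% were lower in males, and 15.2% were higher and 14.0% lower in females. Slc25a34 (Entrez 384071, chromosome 4) stood at 12.26, 12.21 and 12.28 in male floxed and 11.98, 11.97 and 11.99 in male cardioGRKO libraries. In the libraries labelled female it was 12.18, 12.16 and 12.20 in floxed and 12.29, 12.29 and 12.32 in cardioGRKO. The differences were -0.27 in males (SE 0.020, adjusted p = 2.3e-08), or 0.829 of the floxed level, and 0.12 in females (SE 0.020, adjusted p = 0.00031; 0.10 with female floxed 3 alone, adjusted p = 0.0247). As labelled they differed by -0.39 (SE 0.028, adjusted p = 1.7e-08), the largest such gap among the members. With the female labels exchanged the gap would be -0.15 (SE 0.0283, adjusted p = 0.000802), and that of Slc25a4 would be the largest, at -0.31 (SE 0.0151, adjusted p = 2.53e-10).

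Slc25a46, an outer membrane protein of mitochondrial dynamics rather than a known transporter, was lower in males by 0.13 (log2 change -0.13, adjusted p = 0.0035). B930094E09Rik, on the other strand, shares 8.6% of its exon length. Slc25a45 was lower in the libraries labelled female cardioGRKO, at 8.22, 8.23 and 8.20 against 8.35, 8.27 and 8.33, but the difference of -0.10 (adjusted p = 0.04) was not called in 9 of 22 alternatives, among them without any 1 female library other than female floxed 2 and with female floxed 3 alone (-0.11, adjusted p = 0.108). Slc25a14, Slc25a27, Slc25a30, Slc25a35, Slc25a47 and Slc25a53 were called in no comparison.

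The 3 carriers with the largest male differences, Slc25a4, Slc25a34 and Slc25a20, are also those that stayed called when a minimum fold of 1.1 was required. Their promoter sequences, the 250 bases before the gene start, are shown because these genes differed together between the male groups. They are the RefSeq sequences of build GRCm38.p6, written along the strand of the gene, for Slc25a4 at chr8:46211063-46211312 (minus strand), for Slc25a34 at chr4:141623835-141624084 (minus strand) and for Slc25a20 at chr9:108661886-108662135 (plus strand). Capitals mark TGACCTT, the reverse strand of AAGGTCA.
Slc25a4: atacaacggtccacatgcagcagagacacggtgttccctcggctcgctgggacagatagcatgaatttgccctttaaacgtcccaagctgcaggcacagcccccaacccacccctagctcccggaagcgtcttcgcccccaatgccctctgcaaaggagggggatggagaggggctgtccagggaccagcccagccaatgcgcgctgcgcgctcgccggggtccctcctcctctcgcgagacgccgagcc
Slc25a34: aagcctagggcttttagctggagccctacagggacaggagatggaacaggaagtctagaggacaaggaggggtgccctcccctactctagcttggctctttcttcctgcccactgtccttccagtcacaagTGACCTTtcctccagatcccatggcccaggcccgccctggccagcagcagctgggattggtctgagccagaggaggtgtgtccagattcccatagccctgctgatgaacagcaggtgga
Slc25a20: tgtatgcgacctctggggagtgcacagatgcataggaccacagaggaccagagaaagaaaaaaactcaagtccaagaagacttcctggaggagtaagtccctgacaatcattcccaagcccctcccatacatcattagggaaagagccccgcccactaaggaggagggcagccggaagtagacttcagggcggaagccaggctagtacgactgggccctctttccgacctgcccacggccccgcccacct
The GC content of these windows was 64.8%, 58.4% and 56.8%. AAGGTCA, the core site of estrogen-related receptors, was found in the Slc25a34 window and in no other member's, and 4.08% of all 32851 promoters held it on either strand.

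The table of promoters held 46 windows for 36 of the 47 members, and 11 members had no entry. The full palindromic glucocorticoid response element, AGAACA and TGTTCT with any 3 bases between them, was in none of the 46 windows and in 0.00913% of all. Its arm AGAACA alone, which lies within the full element, was in 8.7% of the members' windows and 16.1% of all. The E-box CACGTG was in 17.4% against 6.02%, in windows of Slc25a1, Slc25a13, Slc25a14, Slc25a15, Slc25a31, Slc25a33 and Slc25a36. The NRF-1 site, GCGC and TGCGC with any 1 base between them, was in 4.35% against 3.74%, in windows of Slc25a3 and Slc25a31. All motifs were searched on both strands with no mismatch. The carriers' windows had a median GC content of 57.4%, against 52.4% over all, and a match is a string of letters and not a measured site.

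Set side by side as labelled, the 2 comparisons called different directions for 7 carriers. Slc25a3, Slc25a5, Slc25a20, Slc25a22, Slc25a25, Slc25a34 and Slc25a39 were lower in male cardioGRKO libraries and higher in those labelled female cardioGRKO. Apart from a minimum fold and the exchange of labels, only Slc25a20, Slc25a22 and Slc25a34 kept both calls under every alternative. Under at least 1 of them, Slc25a3 lost its call in both sexes, Slc25a5 and Slc25a25 in females and Slc25a39 in males. A further 7 carriers were lower in males and not called in females, 3 were higher and 2 lower in females alone, 1 was lower in both and 21 were called in neither. Of all genes tested 27.4% were called in males and 29.3% in females. How many of them share each pair of calls was not counted, so these counts cannot be read as particular to the carriers. The test of the difference between the comparisons called 15 members lower in the male comparison and 2 higher, Slc25a28 and Slc25a31, where 31.3% of all genes were called (17.0% lower and 14.3% higher). All 7 carriers called in opposite directions were among the 15. Both differences come from 1 fit with equal SE, so opposite calls already lead to a call here and this adds no support. The other 8 were Slc25a4, Slc25a11, Slc25a12, Slc25a15, Slc25a26, Slc25a36, Slc25a42 and Slc25a46. Of these, Slc25a26, a carrier of S-adenosylmethionine, was called in neither sex alone and lost its call without male cardioGRKO 2 (-0.13, adjusted p = 0.053). Lrig1, on the other strand, shares 7.2% of the exon length of Slc25a26. In this test 16 members were lower and 1 higher with female floxed 3 alone, where 26.3% of all genes were called (14.4% lower and 11.9% higher).

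These directions rest on female labels that Nr3c1 goes against. With the labels of both female groups exchanged, an alternative chosen after seeing the data, those 7 carriers would be lower in both sexes. The test of the difference would then call 8 members lower in the male comparison and 3 higher, where 24.6% of all genes would be called (12.4% lower and 12.2% higher). The 8 are Slc25a4, Slc25a12, Slc25a13, Slc25a20, Slc25a29, Slc25a31, Slc25a34 and Slc25a42, and the 3 are Slc25a1, Slc25a37 and Slc25a39. Of these 11, 7 are also called as labelled. Slc25a22 would go from -0.32 to -0.01 (adjusted p = 0.789) and Slc25a25 from -0.28 to -0.03 (adjusted p = 0.5).

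The order of the groups showed where these gaps lay. In 12 of the 41 members all male floxed libraries were above all other libraries, where 10.1% of all genes tested showed this. These were Slc25a3, Slc25a4, Slc25a5, Slc25a11, Slc25a12, Slc25a13, Slc25a15, Slc25a20, Slc25a25, Slc25a29, Slc25a30 and Slc25a46. Male cardioGRKO libraries were above all others in 0 members (4.80% of all genes) and below in 4 (4.50%), while male floxed ones were below all others in 2 (7.63%). The libraries labelled female floxed were below all others in 3 members (10.3%) and above in 1 (7.56%), and those labelled female cardioGRKO were above in 4 (4.04%) and below in 2 (3.36%). The summed linear level of the 47 carriers was 1.18% to 1.20% of each male floxed library. It was 1.07% in every male cardioGRKO library as rounded, 1.08% to 1.09% in those labelled female floxed and 1.07% to 1.08% in those labelled female cardioGRKO, a sum that Slc25a4 leads.

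**Figure D3:**
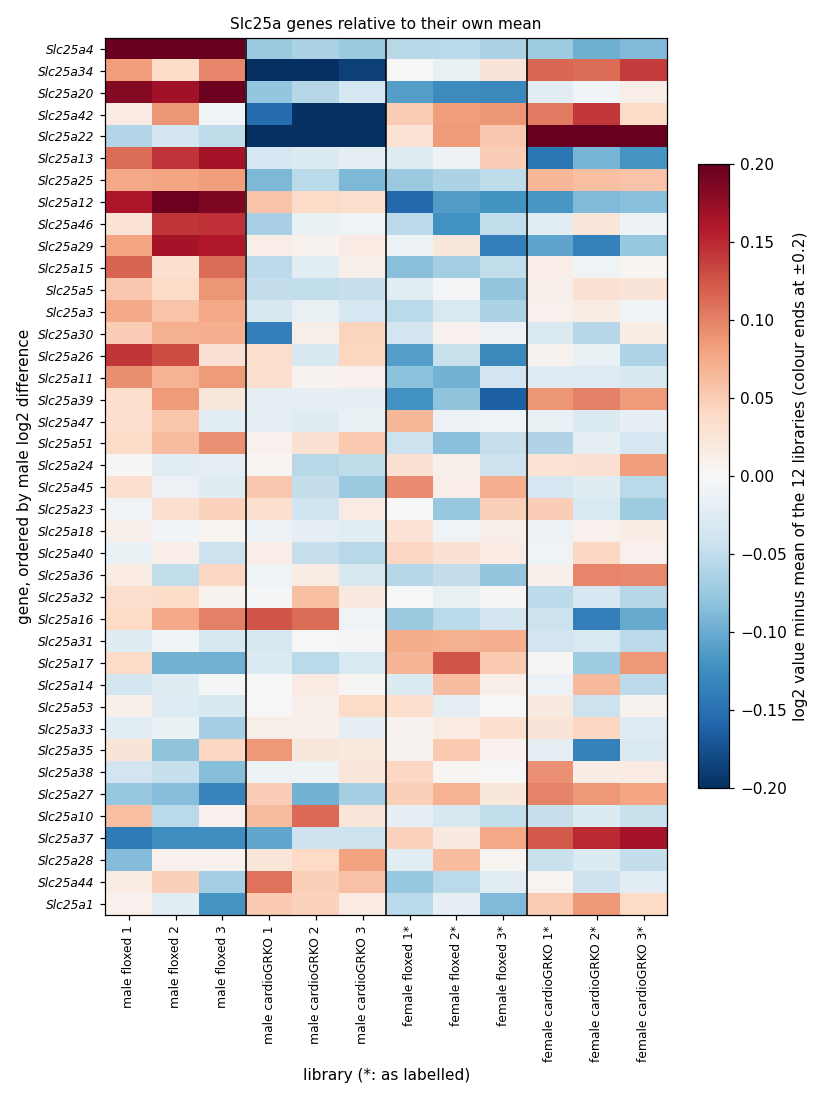
Log2 values of tested carriers (rows, ordered by their male difference) relative to their own mean over the 12 libraries (columns, grouped by vertical lines, asterisks mark groups named as labelled); red is above and blue below the mean, and colours end at 0.2 either way. The upper rows are red in the 3 male floxed columns and blue in the male cardioGRKO ones, and the replicates of a group look alike.

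Of the 5 carriers of the family that have other symbols, Ucp1 and Ucp2 gave the largest differences. Ucp2, an uncoupling protein found in many cell types, stood at 11.71, 11.73 and 11.75 in male floxed and 12.38, 12.34 and 12.39 in male cardioGRKO libraries. Those labelled female had 12.85, 12.94 and 12.86 in floxed and 12.59, 12.57 and 12.56 in cardioGRKO. The groups did not overlap, with 0.64 in males (SE 0.024, adjusted p = 3.7e-12) and -0.31 in females (SE 0.024, adjusted p = 6.7e-08), or -0.29 with female floxed 3 alone. As labelled these directions are the reverse of those of the 7 Slc25a rows called in both sexes in opposite directions.

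Ucp1, the uncoupling protein of brown fat, was at 8.06, 8.02 and 8.09 in male floxed and 7.62, 7.59 and 7.53 in male cardioGRKO libraries (-0.48, SE 0.038, adjusted p = 5.9e-08). Those labelled female had 7.08, 7.18 and 7.02 in floxed and 8.77, 8.78 and 8.73 in cardioGRKO (1.66, SE 0.038, adjusted p = 1.1e-14), or 1.74 with female floxed 3 alone. Ucp3, the uncoupling protein of muscle, was lower in males (11.33, 11.25 and 11.34 against 11.10, 11.10 and 11.07; -0.21, adjusted p = 5.2e-06) and at 0.06 in females without a call (adjusted p = 0.083; 0.03 with female floxed 3 alone, adjusted p = 0.604). Mtch1 and Mtch2, carrier-like proteins of the outer membrane, were called in no comparison, although Mtch1 was called in females with female floxed 3 alone (0.11, adjusted p = 0.0224). Over the 5 genes the counts were 1 higher and 2 lower in males and 1 higher and 1 lower in females. Of all genes tested 27.4% were called in males and 29.3% in females.

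The enzymes that work with the carriers were mostly lower in males, where 14.6% of all genes tested were lower and 12.8% higher. As labelled, 15.2% of all genes were higher and 14.0% lower in females. Of 11 shuttle enzymes 9 were lower and 0 higher in males, with a median of -0.171, and as labelled 7 were higher and 2 lower in females, with a median of 0.087 (5 higher and 2 lower with female floxed 3 alone). Got1, the cytosolic aspartate aminotransferase of the malate-aspartate shuttle, was at 14.53, 14.52 and 14.50 in male floxed and 14.07, 14.05 and 14.05 in male cardioGRKO libraries (-0.46, SE 0.016, adjusted p = 1.2e-12). Among those labelled female, the values were 13.91, 13.93 and 13.95 in floxed and 13.98, 14.00 and 13.98 in cardioGRKO (0.06, adjusted p = 0.01). That value was not called without female floxed 1 (adjusted p = 0.0559) or with female floxed 3 alone (0.04, adjusted p = 0.249). As with Slc25a4, the male floxed libraries stood above all others.

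Ckmt2, the mitochondrial creatine kinase that uses the ATP exported by the ADP/ATP carrier, followed the same order. It had 16.44, 16.42 and 16.44 in male floxed and 16.06, 16.06 and 16.04 in male cardioGRKO libraries (-0.38, SE 0.015, adjusted p = 5.2e-12), and 15.94, 15.95 and 15.996 against 16.05, 16.07 and 16.04 in those labelled female (0.09, SE 0.015, adjusted p = 0.00019; 0.06 with female floxed 3 alone, adjusted p = 0.0116). Crat, carnitine acetyltransferase, was lower in males by 0.31 (log2 change -0.31, SE 0.023, adjusted p = 3.3e-08) and higher in females by 0.24 (SE 0.023, adjusted p = 8.4e-07; 0.19 with female floxed 3 alone, adjusted p = 1.18e-06). Cpt2, which makes acyl-CoA from the acylcarnitines that Slc25a20 imports, was -0.29 in males (adjusted p = 2.2e-07) and 0.14 in females (adjusted p = 0.00058; 0.11 with female floxed 3 alone, adjusted p = 0.00839).

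Gpd1, the cytosolic glycerol-3-phosphate dehydrogenase, had the largest female value of this list. It had 10.90, 10.92 and 10.84 in floxed and 11.45, 11.44 and 11.44 in cardioGRKO libraries as labelled (0.56, SE 0.022, adjusted p = 1.5e-11), or 0.61 with female floxed 3 alone. Its male difference of -0.06 (adjusted p = 0.045) was not called in 15 of 22 alternatives, all 6 fits without 1 male library among them. The 2 lower ones in females were Cpt1b (-0.09, adjusted p = 0.018) and Got2 (-0.06, adjusted p = 0.048). The Cpt1b call was lost without female floxed 1 (adjusted p = 0.091), female floxed 3 (adjusted p = 0.055) or female cardioGRKO 2 (adjusted p = 0.0516), and that of Got2 in 15 of 22 alternatives. With female floxed 3 alone both were called, at -0.12 for Cpt1b (adjusted p = 0.0223) and -0.10 for Got2 (adjusted p = 0.00189).

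Of 19 other transporters of the inner membrane, 1 was higher and 5 lower in males, and 2 were higher and 1 lower in females, with medians of 0.008 and -0.014. These counts stand beside 27.4% of all genes called in males and 29.3% in females. In males Micu2, a regulator of the calcium uniporter, was higher by 0.16 (adjusted p = 6.4e-06), while Letm1, a cation exchanger, was lower (-0.16, adjusted p = 0.0001), as were Mpc2, a subunit of the pyruvate carrier, and Sfxn5, a sideroflexin, at -0.13 each (adjusted p = 0.00023 and 0.004). In females, as labelled, Abcb6 was higher by 0.14 (adjusted p = 0.0017) and Abcb10 by 0.09 (adjusted p = 0.015), both ATP-driven transporters tied to heme, and Sfxn2 was lower (-0.17, adjusted p = 0.0013). With female floxed 3 alone these 3 values were 0.14, 0.11 and -0.19 (adjusted p = 0.024, 0.0416 and 0.0038). The Abcb10 call was lost without female cardioGRKO 3 (adjusted p = 0.0648).

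Of 4 outer membrane genes Vdac1, the main channel for ADP and ATP, was lower in males (14.53, 14.53 and 14.55 against 14.45, 14.48 and 14.44; -0.08, adjusted p = 5e-04) and higher in females (14.36, 14.32 and 14.34 against 14.42, 14.41 and 14.44; 0.09, adjusted p = 4e-04), also with female floxed 3 alone (0.09, adjusted p = 0.00274). Neither was called under quantile normalization (adjusted p = 0.199 and 0.153). Tspo was higher in males by 0.16 (adjusted p = 0.0035). Of all genes tested 27.4% were called in males and 29.3% in females. The import machinery of the carriers gave 1 higher and 1 lower of 13 genes in males and 2 higher and 0 lower in females, with medians of 0.004 and 0.017. The calls were Timm10, a chaperone of the intermembrane space (0.19 in males, adjusted p = 0.00019; 0.11 in females, adjusted p = 0.01), and 1810026J23Rik, an earlier symbol of Timm29, a subunit of the carrier translocase (-0.11 in males, adjusted p = 0.0096; 0.16 in females, adjusted p = 0.00041, and 0.11 with female floxed 3 alone, adjusted p = 0.0326). Some of these calls depended on single libraries. Timm10 in females was lost without female floxed 1 (adjusted p = 0.0604) and with female floxed 3 alone (0.06, adjusted p = 0.359), and 1810026J23Rik in males without male floxed 2 (adjusted p = 0.0545) or male cardioGRKO 1 (adjusted p = 0.0588).

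Of 9 heme synthesis enzymes, which depend on imported glycine and iron, 1 was higher and 2 lower in males and as labelled 5 higher and 0 lower in females. The shares over all genes were 12.8% higher and 14.6% lower in males, and 15.2% higher and 14.0% lower in females. Alas1, the rate-limiting enzyme outside red cells, was at 13.04, 13.01 and 13.03 in male floxed and 12.65, 12.62 and 12.64 in male cardioGRKO libraries (-0.39, SE 0.018, adjusted p = 7.4e-11), and at -0.01 between the libraries labelled female (adjusted p = 0.66; -0.02 with female floxed 3 alone, adjusted p = 0.629). Alas2, its erythroid counterpart, was higher by 0.15 in males (adjusted p = 0.0024) and by 0.70 in females (SE 0.033, adjusted p = 2.1e-10; 0.65 with female floxed 3 alone, adjusted p = 8.34e-14). Cpox was higher in females by 0.13 (adjusted p = 0.0022), as was Uros by 0.12 (adjusted p = 0.0011), and with female floxed 3 alone these were 0.12 and 0.13 (adjusted p = 0.0282 and 0.0142). Uros in males (-0.07, adjusted p = 0.029) was not called in 10 of 22 alternatives, among them without male floxed 1, male floxed 3 or any 1 male cardioGRKO library.

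**Figure D4:**
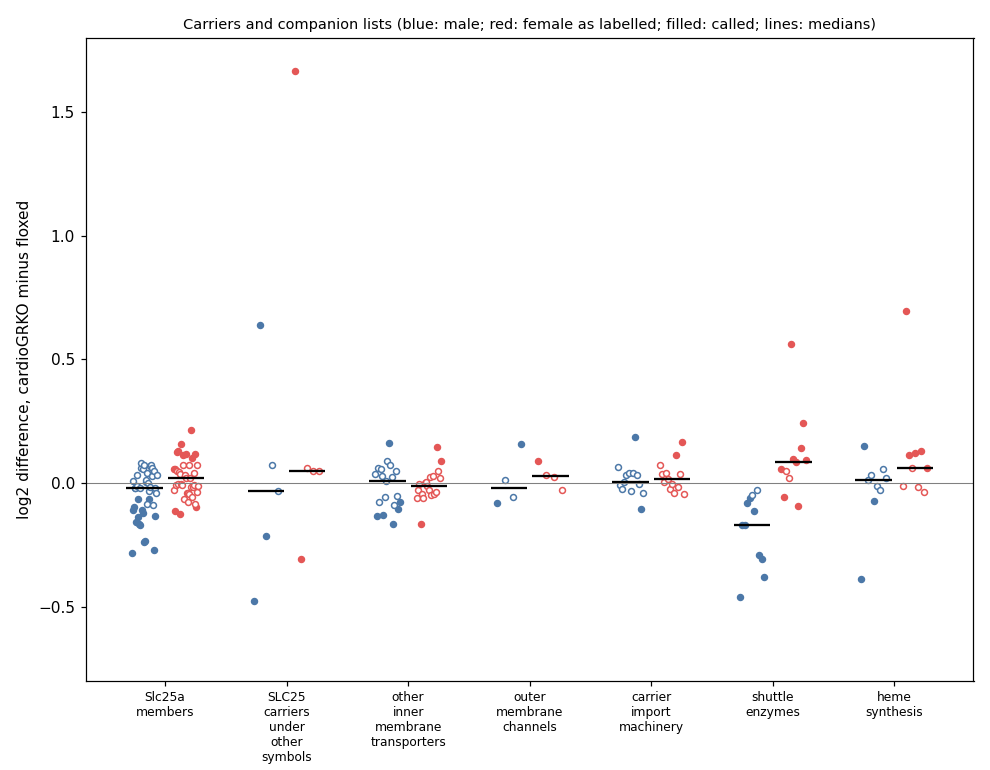
Log2 difference between cardioGRKO and floxed libraries (vertical axis) for each tested gene of the Slc25a rows and of 6 related lists (horizontal axis); blue is male, red is female as labelled, filled points are called and black lines are medians. The shuttle enzymes lie at a median of -0.171 in males and 0.087 in females, and Ucp1 in females is the highest point at 1.66.

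Markers of cell types were read beside these results, with the share of a list in the summed linear values. Their calls stand beside 27.4% of all genes called in males and 29.3% in females. The 12 cardiomyocyte markers made up 10.8% to 11.0% in male floxed and 10.4% to 10.5% in male cardioGRKO libraries, with 8 of 12 called lower and 1 higher. As labelled, they made up 10.5% to 10.8% of female floxed libraries and 10.6% of female cardioGRKO ones, with 1 lower and 5 higher (5 lower and 5 higher with female floxed 3 alone). Atrial markers moved most in males, from 0.126% to 0.128% in male floxed to 0.559% to 0.561% in male cardioGRKO libraries, with 7 of 8 higher and 1 lower. By the female labels they went from 0.444% to 0.462% in floxed to 0.216% to 0.220% in cardioGRKO, with 7 of 8 lower. Their part in the carriers' differences was not tested.

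The 8 fibroblast markers made up 0.242% to 0.245% in male floxed and 0.277% to 0.278% in male cardioGRKO libraries (7 higher and 0 lower), and 0.297% to 0.317% against 0.281% to 0.282% in those labelled female (1 higher and 5 lower). The 10 endothelial markers made up 0.238% to 0.239% and 0.226% to 0.229% in males (1 higher and 8 lower), and 0.229% to 0.233% and 0.232% to 0.237% in females (4 higher and 3 lower). Adipocyte markers, which include Ucp1, made up 0.0997% to 0.103% in male floxed and 0.0842% to 0.0843% in male cardioGRKO libraries (2 of 9 tested higher and 4 lower). In the libraries labelled female they made up 0.0839% to 0.0875% in floxed and 0.0943% to 0.0969% in cardioGRKO (8 of 9 higher), while Lep was near 1.5 on the log2 scale in every library. Beside the Ucp1 and Gpd1 values the part of fat cells was not tested.

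Erythroid markers, which include Alas2, made up 0.00398% to 0.00657% of any library, with 3 of 10 genes tested, of which 1 was higher in males and 3 in females, and Hba-a1 and Hbb-b1 were listed at 0 throughout. Skeletal muscle markers made up 0.00404% to 0.00598%, with 5 of 6 tested genes higher in males and 5 higher and 1 lower in females, and Myh4 was near 0.07 in every library. Epithelial markers made up 0.0789% and 0.144% of female floxed 1 and 2 as labelled, and at most 0.00516% in any other, with 8 of 8 called lower in the libraries labelled female cardioGRKO, 2 of 8 with female floxed 3 alone, and 0 called in males. Among the members Slc25a48, which was not tested, stood at 2.28 and 2.31 in those 2 libraries and at 2.20 to 2.22 in all others.

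**Figure D5:**
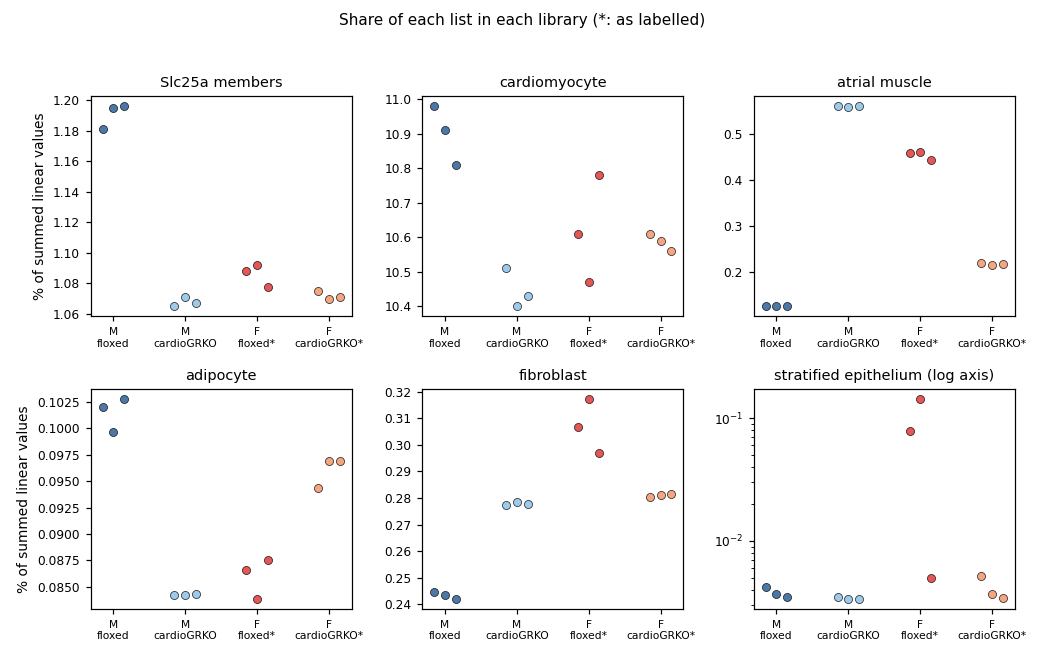
Share of the summed linear values of each library (vertical axes, in percent, each panel with its own range and the epithelial one on a log axis) taken by the Slc25a rows and by 5 lists of cell type markers; points are libraries, M is male, F female, and an asterisk marks groups named as labelled. The share of the carriers is 1.18% to 1.20% in male floxed libraries and 1.07% to 1.09% in all others, and atrial markers are lowest in male floxed libraries.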

How the data were processed

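RNA-seq of 12 heart libraries was read from 1 table of log2 values deposited by the authors. The tools were Trim Galore, TopHat2 with build mm9, HTSeq and DESeq2, per the submitters' processing notes, which give no versions. The log2 values deposited are no counts, 4895 of 24918 rows are at 0 throughout, and small differences among low genes point to shrinkage that no header states, so differences of low genes may be understated and depth cannot be recovered. All 12 value columns were used, and groups came from the sample titles, since the genotype field reads wild-type throughout.

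One limma model (limma 3.58.1, R 4.3.3) with 4 group means (8 residual degrees of freedom), moderation and an intensity trend was fitted to the 14721 genes with at least log2 of 10 in 3 of 12 libraries, the whole table at once. Every adjusted p is its two-sided p, Benjamini-Hochberg adjusted over all genes tested and called under 0.05; SE is limma's. The steps were tested on simulated data. Shares are of summed linear values (2 to the power of the value). Lengths came from GENCODE M21, promoters from RefSeq.

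The members, the lists and the rule for named genes were chosen with earlier results of these data known. The rule named, per comparison and direction, up to 6 called members with the largest difference, 7 members by role, and up to 3 called genes per related list. The other members and the markers were named to account for all of them, after their values were seen; 1 tested member is counted but not reported here by name. Alternatives were another filter (none, or log2 of 50), another scaling (quantile, median), another moderation (no trend, robust), a block on the replicate number, fits within a sex, a minimum fold of 1.1, leaving out each library, and female floxed 3 as the only floxed female library; exchanged female labels were added after seeing the data.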

Additional observations from a re-analysis of the deposited data

Results flagged for a closer look

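For 17 carriers the male difference (cardioGRKO minus floxed) differed from that between the libraries labelled female, tested as the difference of both in limma. The log2 values, male minus female, were -0.39 for Slc25a34, -0.36 for Slc25a20, -0.32 for Slc25a22, -0.28 for Slc25a25 and Slc25a39, -0.26 for Slc25a4, -0.25 for Slc25a42 and -0.21 for Slc25a46. They were -0.18 for Slc25a15, -0.17 for Slc25a12, -0.16 for Slc25a5 and Slc25a26, -0.15 for Slc25a3, -0.14 for Slc25a36 and -0.11 for Slc25a11. Slc25a31 (0.12) and Slc25a28 (0.13) differed the other way. These values follow the female labels. With those labels exchanged, the test would call 11 carriers, 7 of them among these 17, with -0.15 for Slc25a34, -0.12 for Slc25a20, -0.01 for Slc25a22, -0.03 for Slc25a25 and -0.31 for Slc25a4, and 0.15 for Slc25a39.

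The same test called the targeted gene Nr3c1 at -0.70, and the female part of that value goes against the labels. With the female labels exchanged the Nr3c1 value would be -0.42. Among the uncoupling proteins it called Ucp1 (-2.14), Ucp2 (0.95) and Ucp3 (-0.27). Of 10 shuttle enzymes called, those named above were Gpd1 (-0.62), Crat (-0.55), Got1 (-0.52), Ckmt2 (-0.47), Cpt2 (-0.43) and Got2 (-0.11). Of 5 heme enzymes called, those named above were Alas2 (-0.55), Alas1 (-0.38), Uros (-0.19) and Cpox (-0.16). Among the other membrane genes, those named above and called were Abcb10 (-0.17), Vdac1 (-0.17), Sfxn5 (-0.13), Letm1 (-0.12), Mpc2 (-0.10), Micu2 (0.14) and Tspo (0.19), and of the import machinery 1810026J23Rik (-0.27) was called. Apart from a minimum fold and the exchange of labels, the calls of Slc25a3, Slc25a4, Slc25a11, Slc25a26, Slc25a28, Slc25a36, Got2, Letm1, Mpc2, Sfxn5 and Tspo in this test were lost under at least 1 alternative, and the calls of the others were kept under all that were run.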

How the results depend on the processing

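Leaving out each library in turn gave 13 to 16 members lower and 0 to 1 higher in males, 8 to 11 higher and 2 to 4 lower in females, and 14 to 15 lower and 1 to 2 higher in the difference. Of all 14721 genes these fits called 1823 to 2273 lower and 1565 to 1996 higher in males. They called 1815 to 2238 higher and 1578 to 2036 lower in females, and 2280 to 2573 lower and 1833 to 2334 higher in the difference. The single higher member in males was Slc25a1 without male floxed 1, Slc25a44 without male floxed 2 and Slc25a37 without male cardioGRKO 1; it was also Slc25a37, 1 member, under quantile normalization and without the intensity trend. The members higher in the difference numbered 1 with the filter at log2 of 50, where 38 members were tested, and 1 with female floxed 3 as the only floxed female library. A minimum fold of 1.1, a stricter question, left 3 members called in males, 3 lower and 0 higher (Slc25a4, Slc25a20 and Slc25a34). Of all 14721 genes 337 were then lower and 331 higher in males. In females 0 members were left in either direction, where 197 genes were lower and 206 higher. The difference kept 6 members, 6 lower and 0 higher, where 654 genes were lower and 516 higher. Nr3c1 in females (0.14) was then not called. Quantile normalization turned the sign of Slc25a3 (-0.000400, adjusted p = 0.99), Slc25a11 (-0.00073, adjusted p = 0.976) and Slc25a12 (-0.0049, adjusted p = 0.873) in females and of Slc25a4 in the difference (0.034, adjusted p = 0.385), none of them then called; it sets a value by its rank, and Slc25a4 ranks near the top. Of the single genes followed, 2122 values kept their direction and call, 206 lost the call, 4 gained it and 4 changed sign. With the female labels exchanged, chosen after seeing the data, the members were 3 higher and 10 lower in females, and 11 were called in the difference, 3 higher and 8 lower. With the replicate number as a block the members were 0 higher and 14 lower in males, 9 and 3 in females, and 2 and 15 in the difference. All genes were then 1757 higher and 1995 lower in males, 2087 and 1901 in females, and 2060 and 2368 in the difference. Same-numbered libraries correlated at 0.0662, -0.0555 and -0.0308 in males and 0.0928, -0.11 and 0.148 in females. Differently numbered ones ranged from -0.0725 to 0.0988 in males and from -0.222 to 0.24 in females. With 3 libraries a group these values show no sign of pairing by number and cannot exclude it. Depth is unknown, and differences of a few hundredths rest on the spread of 3 libraries a group.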
